A study of Homo sapiens with 6 samples.

Results

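The clustered protocadherins are adhesion genes that stand side by side in an alpha, a beta and a gamma cluster on chromosome 5. They were described in total RNA of 4 lines grown from AT/RT tumors, namely CHLA 02, CHLA 04, CHLA 05 and also CHLA 06. Members were the genes of chromosome 5 whose symbol is PCDH followed by A, B, GA, GB, GC or AC and a number. This rule took 55 of 36532 genes: 15 in the alpha cluster, 17 in the beta cluster and 23 in the gamma cluster. Of these, 53 encode proteins and 2, PCDHB18P and PCDHGB9P, are pseudogenes. In GRCh38 the alpha genes span chr5:140786136-141012347, the beta genes chr5:141051135-141249365 and the gamma genes chr5:141330571-141512981, and all 131 member transcripts lie on the plus strand. The rule used names and positions, and no measured value.

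AT/RT, atypical teratoid rhabdoid tumor, is a malignant brain tumor of young children marked by loss of SMARCB1, a subunit of the SWI/SNF chromatin remodeling complex. The study classes CHLA 02, CHLA 04 and CHLA 05 as group 1 neurogenic tumors, and CHLA 06 as group 2. All 4 are established lines from ATCC, grown in DMEM:F12 with 20 ng/mL EGF, 20 ng/mL basic FGF and 2% B-27, and none had SMARCB1 restored. There was 1 library of CHLA 02 and 1 of CHLA 05, whereas CHLA 04 and CHLA 06 were each sequenced as 2 technical replicates, so a line is 1 biological sample. No test between lines was therefore made, and an SD below is the spread between technical replicates only. The study describes all 4 lines as lacking SMARCB1 expression. In the RNA values SMARCB1 itself was listed at 13.5 TPM in CHLA 02, 26.2 and 22.1 TPM in the CHLA 04 replicates, 16.3 TPM in CHLA 05, and 17.3 and 16.2 TPM in the CHLA 06 replicates. The files do not show which exons those reads fell on.

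Clustered protocadherins are cell surface proteins of the cadherin family, known above all from neurons. In the alpha and gamma clusters each member has its own promoter and a large variable first exon, which is spliced to constant exons shared by the whole cluster. Beta members are mostly genes of a single exon with no constant part. A single neuron typically uses a few of the variable members, by stochastic promoter choice, so that cells carry different surface labels, while the C-type members at the end of the alpha and gamma clusters follow the cell type instead. CTCF and cohesin bring promoters and enhancers of the clusters together, and DNA methylation and SMCHD1 hold unused promoters silent.

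Many of these promoters share a short element with the core CGCT, and the windows below show it for members at both ends of the expression range. They are the 120 bases before the RefSeq start (GRCh38.p14, plus strand, 5′ to 3′) of the highest 2 members and the lowest member by mean TPM with a window in each cluster, C-type members apart, and of PCDHGC3, the most abundant C-type member. Capitals mark every CGCT.
PCDHA2, chr5:140794732-140794851: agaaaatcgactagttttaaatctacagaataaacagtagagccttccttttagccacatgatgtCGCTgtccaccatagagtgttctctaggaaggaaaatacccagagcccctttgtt
PCDHA4, chr5:140806948-140807067: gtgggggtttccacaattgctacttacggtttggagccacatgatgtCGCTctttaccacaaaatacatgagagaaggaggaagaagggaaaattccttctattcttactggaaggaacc
PCDHA11, chr5:140868837-140868956: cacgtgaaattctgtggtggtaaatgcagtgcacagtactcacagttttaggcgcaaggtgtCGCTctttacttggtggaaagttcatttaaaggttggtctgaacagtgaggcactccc
PCDHB2, chr5:141094495-141094614: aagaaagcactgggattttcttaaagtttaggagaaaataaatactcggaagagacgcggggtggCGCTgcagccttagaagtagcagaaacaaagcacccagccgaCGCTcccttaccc
PCDHB3, chr5:141100353-141100472: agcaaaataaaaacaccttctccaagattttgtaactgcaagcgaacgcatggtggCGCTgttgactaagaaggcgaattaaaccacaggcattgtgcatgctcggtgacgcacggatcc
PCDHB5, chr5:141135086-141135205: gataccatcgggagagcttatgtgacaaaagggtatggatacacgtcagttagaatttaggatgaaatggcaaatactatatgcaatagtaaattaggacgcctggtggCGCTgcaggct
PCDHGB1, chr5:141349979-141350098: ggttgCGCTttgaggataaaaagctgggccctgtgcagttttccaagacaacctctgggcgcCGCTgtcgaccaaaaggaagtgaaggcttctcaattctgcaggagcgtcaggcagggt
PCDHGA1, chr5:141330394-141330513: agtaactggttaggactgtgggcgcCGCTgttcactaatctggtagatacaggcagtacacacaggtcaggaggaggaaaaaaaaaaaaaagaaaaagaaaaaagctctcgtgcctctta
PCDHGB4, chr5:141387578-141387697: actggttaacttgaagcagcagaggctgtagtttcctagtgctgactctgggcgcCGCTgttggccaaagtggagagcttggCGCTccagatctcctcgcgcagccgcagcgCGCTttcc
PCDHGC3, chr5:141475846-141475965: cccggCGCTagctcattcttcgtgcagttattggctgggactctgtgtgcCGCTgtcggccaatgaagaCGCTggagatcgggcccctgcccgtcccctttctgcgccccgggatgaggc
Of the 55 members, 47 had a RefSeq window, and 5 of these had more than 1, which gave 52 windows of 300 bases, 250 before the start and 50 after it. Windows were missing for PCDHA3, PCDHA13, PCDHB6, PCDHB11, PCDHB18P, PCDHGA12, PCDHGB9P and PCDHGC5. CGCT on the gene's strand lay 20 to 100 bases before the start in 43 of 52 member windows (82.7%), against 22.7% of the 35116 windows of all genes. On either strand and anywhere in the window it was present in 98.1% of member windows and 70% of all windows. The longer motif TGNCGCT, which contains CGCT and was chosen with these promoters in view, stood at the same distance in 53.8% of member windows and 1.56% of all windows. On either strand and anywhere it was in 67.3% and 10.9%, respectively. By cluster, TGNCGCT stood 20 to 100 bases before the start in 10 of 13 alpha, 11 of 14 beta and 7 of 25 gamma windows. As the printed windows show, CGCT is present in members with no read at all, PCDHA11 and PCDHGB4, as well as in PCDHB2. Counting 1 window per member, TGNCGCT was present on the gene's strand in 15 of 18 members detected in a line and in 15 of 29 detected in none. Gamma windows held it least often, and a smaller share of gamma than of beta members was detected, so this contrast mixes the clusters. Median GC content was 40.7% in member windows and 58.7% in all windows, and 62.3% in the 5 C-type windows.

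Depth on transcripts was 10265899 to 20520229 reads per library, recovered as whole multiples of the TPM step of 1 read. Intervals are 95% Wilson intervals from these reads, and they cover counting error only. Gene TPM (transcript abundance scaled to a fixed sum per library) was the sum over a gene's transcripts, and TPM is scaled by transcript length, so levels of different genes can be compared. Features of 2 lines bear on every result below. In CHLA 02, no gene was at 10 TPM or more while under 0.5 TPM in the other 3 lines, whereas CHLA 05 had 43 such genes, CHLA 06 had 1 and CHLA 04 had 0. CHLA 02 held intermediate levels of the genes that set CHLA 04 and CHLA 06 apart. The 228 genes at 10 TPM or more in CHLA 06 and under 0.3 TPM in CHLA 04 stood in CHLA 02 at a median of 0.598 times their CHLA 06 level, with 227 at 1 TPM or more. The 247 genes high in CHLA 04 and under 0.3 TPM in CHLA 06 stood in CHLA 02 at a median of 0.362 times their CHLA 04 level, with 244 at 1 TPM or more. Of 2286 genes 4-fold apart between CHLA 04 and CHLA 06, 92.0% lay between them in CHLA 02, and 70.3% in CHLA 05. What places CHLA 02 there was not tested, and results are given with and without it.

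The CHLA 04 replicates differed in these genes more than in others. Of 15 members with 10 reads or more in both, 14 were higher in replicate 1, with a median log2 ratio of 0.96, from -0.38 for PCDHB14 to 2.01 for PCDHGA4. Over 13572 genes at the same depth the median was 0.05, with -0.62 and 0.81 as the 10th and 90th percentiles. In CHLA 06, 15 of 18 members were higher in replicate 1, with a median of 0.27, against -0.01 over all genes. A level of CHLA 04 that differs from another line by about this much is therefore within the technical spread, whereas shares within a cluster, given below, were close in both replicates.

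Expression was concentrated in a minority of members. A gene was detected in a line where the mean of log2(TPM + 1) over its technical replicates reached the value of 1 TPM. By this rule CHLA 02 had 16 of 55 members detected, CHLA 04 and CHLA 05 had 14 each, and CHLA 06 had 12. Of all genes, 39.7%, 38.5%, 39.2% and 37.3% were detected in the lines in that order, a larger share in each than the 29.1%, 25.5%, 25.5% and 21.8% of members. In any line 19 members were detected, and 36 were detected in none. How many of all genes were detected in any, every or only 1 line was not counted, so such counts of members have no background here. By cluster, 10 of 17 beta, 4 of 15 alpha and 5 of 23 gamma members were detected in a line. Of the beta members, PCDHB9 was called from 4 and 17 reads in the CHLA 04 replicates and 8 reads in CHLA 05. In CHLA 05, 2 reads on a transcript of 498 bases gave 0.616 of its 1.04 TPM. The 9 members detected in all lines were PCDHA4, PCDHB2, PCDHB3, PCDHB7, PCDHB10, PCDHB11, PCDHB12, PCDHB13 and PCDHGC3, and they stayed 9 without CHLA 02. PCDHA10, in CHLA 04, and PCDHGA4, in CHLA 02, were detected in 1 line by this rule. For PCDHGA4 that call rests on the log2 mean, since its plain mean in CHLA 04 was 1.02 TPM, from 1.63 and 0.404 TPM, and by plain means it was detected in CHLA 04 too, which makes 15 members there and leaves 1 member in 1 line. Without CHLA 02, 18 members were detected in a line and 5 in 1 line, namely PCDHA6 and PCDHGB1 in CHLA 06, PCDHA10 and PCDHB14 in CHLA 04, and PCDHGA1 in CHLA 05. No read in any library was found for 3 members, PCDHA11, PCDHGB4 and PCDHGB9P, and 25 had under 10 reads in every library.

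**Figure D1:**
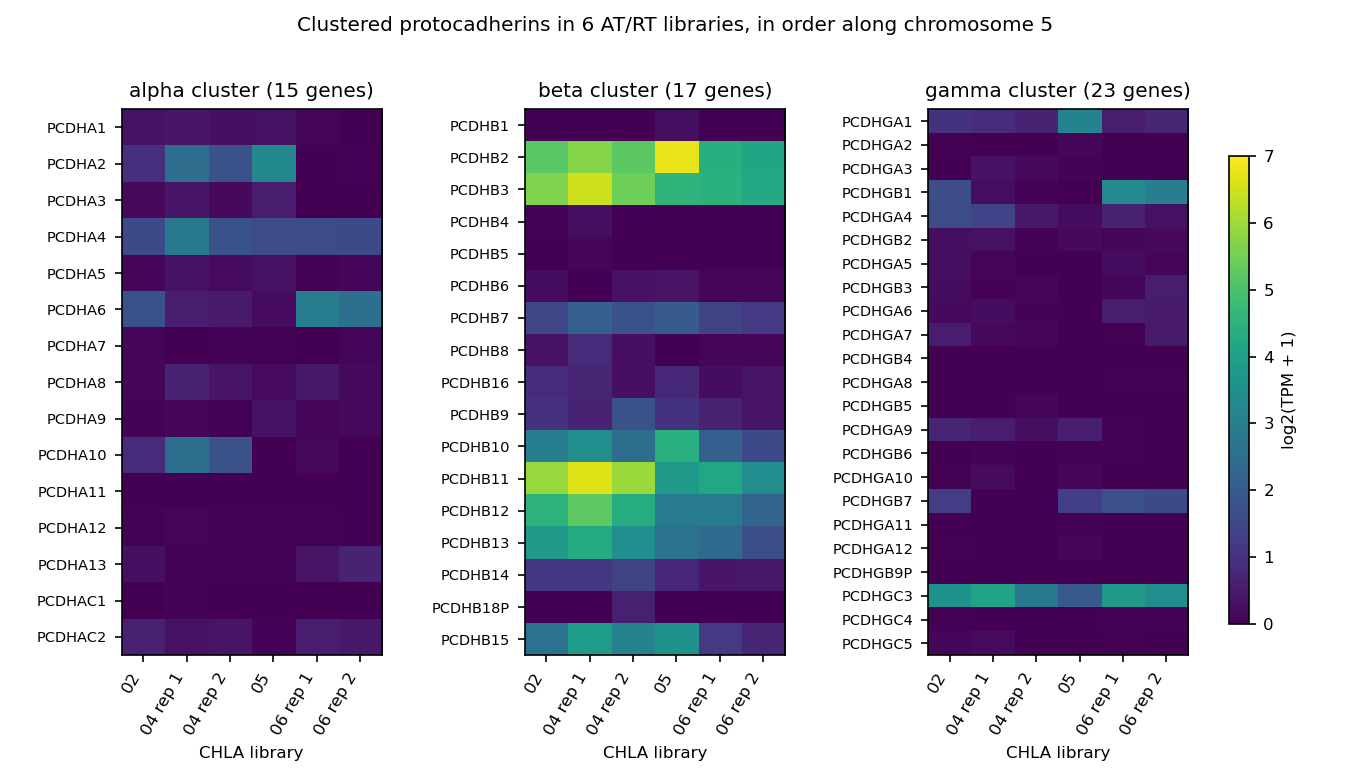
Level of each of the 55 clustered protocadherins, as log2(TPM + 1) in color, in the 6 libraries (columns, with rep for technical replicate) and in the order of the genes along chromosome 5 (rows, 1 panel per cluster). PCDHB2, PCDHB3 and PCDHB11 are bright in every library, whereas PCDHA2, PCDHA6, PCDHA10, PCDHGA1 and PCDHGB1 are brighter in some lines and low or at 0 in others, and long runs of members are dark throughout.

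The beta cluster carried most of the RNA. Its summed TPM was 197 in CHLA 02, 325 and 190 in the CHLA 04 replicates, 192 in CHLA 05, and 76.1 and 55.4 in the CHLA 06 replicates. As means of the replicates these were 257 ± 95.2 TPM in CHLA 04 and 65.8 ± 14.7 TPM in CHLA 06 (SD, n = 2 technical replicates). CHLA 06 was the lowest, and its replicates did not overlap with any other library. The alpha cluster summed to 7.50 TPM in CHLA 02, 18.1 and 8.70 in the CHLA 04 replicates, 12.4 in CHLA 05, and 10.3 and 8.21 in the CHLA 06 replicates. The CHLA 04 replicates differed from each other by more than the other lines did among themselves (7.50 to 12.4 TPM), so the alpha total did not set the lines apart. The gamma cluster summed to 19.6 TPM in CHLA 02, 20.5 and 7.87 in the CHLA 04 replicates, 13.5 in CHLA 05, and 26.5 and 21.1 in the CHLA 06 replicates. CHLA 06 held the highest gamma values, although its lower replicate overlapped in its counting interval with CHLA 02 and with replicate 1 of CHLA 04. In shares of all clustered protocadherin TPM, beta made up 87.9% in CHLA 02, 89.4% and 92.0% in CHLA 04 and 88.2% in CHLA 05, but 67.4% and 65.4% in CHLA 06. The gamma share in CHLA 06 was 23.4% and 24.96%, against 3.81% to 8.74% in the other libraries. The gap in balance that separates CHLA 06 exceeds what technical replicates differ by.

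**Figure D2:**
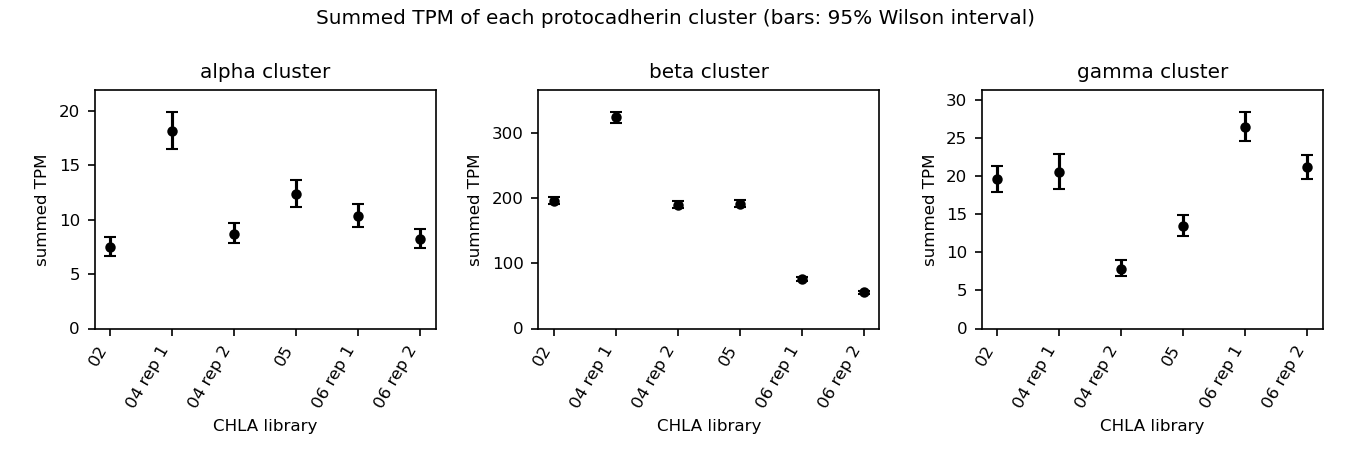
Summed TPM of the alpha, beta and gamma clusters in each of the 6 libraries, with points for libraries and bars for the 95% Wilson interval of the recovered reads. The beta panel reaches 325 TPM and its CHLA 06 points, at 76.1 and 55.4, lie below all others, whereas in the alpha and gamma panels the CHLA 04 replicates differ by more than their counting intervals.

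In the alpha cluster a different member led in each of the lines CHLA 05 and CHLA 06, and several shared the lead in CHLA 04. PCDHA2 (ENSG00000204969) stood at 0.907 TPM in CHLA 02, 4.68 and 2.35 in the CHLA 04 replicates, 8.64 in CHLA 05, and 0 and 0.0223 in the CHLA 06 replicates, where it had 0 and 1 read. It was highest in CHLA 05, and CHLA 06 lay below every other library. PCDHA6 (ENSG00000081842) stood at 2.42 TPM in CHLA 02, 0.458 and 0.423 in the CHLA 04 replicates, 0.144 in CHLA 05, and 6.87 and 4.89 in the CHLA 06 replicates. Its CHLA 06 replicates did not overlap with any other line, and CHLA 04 and CHLA 05 rested on 9, 8 and 3 reads. PCDHA10 (ENSG00000250120) stood at 0.792 TPM in CHLA 02, 4.75 and 2.33 in the CHLA 04 replicates, 0.0124 in CHLA 05, and 0.119 and 0.00947 in the CHLA 06 replicates. It was highest in CHLA 04 and had 1 read in CHLA 05. PCDHA4 (ENSG00000204967) was the alpha member shared by all lines, at 1.92 TPM in CHLA 02, 6.14 and 2.37 in the CHLA 04 replicates, 2.11 in CHLA 05, and 2.01 and 1.90 in the CHLA 06 replicates. Apart from replicate 1 of CHLA 04, its levels lay within 1.90 to 2.37 TPM. The 11 alpha members detected in no line were at most at 0.632 TPM, the value of PCDHA8 in replicate 1 of CHLA 04, and made up 11.5% to 19.4% of the alpha total.

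As shares of the alpha total, PCDHA2 made up 69.8% in CHLA 05, and PCDHA6 made up 66.4% and 59.6% in CHLA 06. In CHLA 04, PCDHA4, PCDHA10 and PCDHA2 were near equal, with 33.9%, 26.2% and 25.8% in replicate 1 and 27.2%, 26.7% and 27.04% in replicate 2. CHLA 02 held PCDHA6 at 32.3%, PCDHA4 at 25.6%, PCDHA2 at 12.1% and PCDHA10 at 10.6%, that is, the leading members of both CHLA 04 and CHLA 06.

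In the beta cluster, whose single-exon genes encode cadherin repeats without the shared intracellular part, the leading genes were PCDHB2, PCDHB3 and PCDHB11. PCDHB2 (ENSG00000112852) stood at 35.8 TPM in CHLA 02, 51.9 and 37.1 in the CHLA 04 replicates, 107 in CHLA 05, and 20.1 and 16.8 in the CHLA 06 replicates. CHLA 05 stood above and CHLA 06 below all other libraries. PCDHB11 (ENSG00000197479) had another order, with 59.4 TPM in CHLA 02, 99.95 and 60.6 in the CHLA 04 replicates, 12.7 in CHLA 05, and 16.9 and 9.78 in the CHLA 06 replicates. CHLA 02 and CHLA 04 were high and CHLA 05 fell between the CHLA 06 replicates. PCDHB3 (ENSG00000113205) stood at 49.5 TPM in CHLA 02, 86.8 and 43.2 in the CHLA 04 replicates, 22.6 in CHLA 05, and 21.0 and 17.7 in the CHLA 06 replicates. It followed the order of PCDHB11, with CHLA 05 close above CHLA 06. PCDHB12 (ENSG00000120328), which lies next to PCDHB11, stood at 21.9 TPM in CHLA 02, 37.1 and 19.3 in the CHLA 04 replicates, 6.46 in CHLA 05, and 6.30 and 3.77 in the CHLA 06 replicates. Its neighbor PCDHB13 ran in the same order, from 9.71 to 18.8 TPM in CHLA 02 and CHLA 04 and from 2.22 to 5.24 TPM in CHLA 05 and CHLA 06.

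Other beta members followed PCDHB2 in being highest in CHLA 05 or not lower there. PCDHB10 (ENSG00000120324) stood at 6.97 TPM in CHLA 02, 9.75 and 4.79 in the CHLA 04 replicates, 20.6 in CHLA 05, and 3.46 and 1.95 in the CHLA 06 replicates. PCDHB15 (ENSG00000113248), the last beta gene, stood at 5.06 TPM in CHLA 02, 13.2 and 7.83 in the CHLA 04 replicates, 11.1 in CHLA 05, and 1.25 and 0.699 in the CHLA 06 replicates. CHLA 06 was lowest for both, and for PCDHB15 the CHLA 05 value fell between the CHLA 04 replicates. PCDHB7 was more even, at 1.27 to 3.45 TPM over the libraries, and PCDHB9 and PCDHB14 stayed within 0.341 to 2.31 TPM. The 7 beta members detected in no line were at most at 0.855 TPM and made up under 1% of the beta total in each library, with 0.816% as the highest value. PCDHB3 shares exons with PCDHB4, PCDHB5 and PCDHB6, and PCDHB9 with PCDHB10, and close paralogs such as PCDHB8 and PCDHB16 can exchange reads, so values of the low members among them are uncertain.

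As a share of the beta total, PCDHB2 made up 55.9% in CHLA 05 and 15.99% to 30.4% in the other libraries. PCDHB11 made up 30.2% in CHLA 02 and 30.8% and 31.9% in CHLA 04, against 6.63% in CHLA 05 and 22.2% and 17.7% in CHLA 06. The inverse of the summed squared shares, an effective number of members in use, was 2.88 for the beta cluster in CHLA 05 and 4.27 to 4.85 in the other libraries.

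In the gamma cluster the C-type member PCDHGC3 led in every line except CHLA 05, and variable members differed between lines. PCDHGC3 (ENSG00000240184) stood at 10.8 TPM in CHLA 02, 16.1 and 6.10 in the CHLA 04 replicates, 2.96 in CHLA 05, and 12.9 and 9.80 in the CHLA 06 replicates. CHLA 05 was the lowest library, and the other lines overlapped one another. PCDHGB1 (ENSG00000254221) stood at 2.13 TPM in CHLA 02, 0.194 and 0.0559 in the CHLA 04 replicates, 0 in CHLA 05, and 9.28 and 6.96 in the CHLA 06 replicates. Its CHLA 06 replicates stood above all others, and CHLA 04 rested on 3 and 1 reads. A count of 0 in CHLA 05 was given a floor of 3 reads on the shortest PCDHGB1 transcript, 0.177 TPM. Against that floor the mean of CHLA 06 was 45.8-fold and the CHLA 02 value 11.98-fold higher. The floor bounds CHLA 05 only, and the counting error and replicate spread of the higher lines were not included. PCDHGA1 (ENSG00000204956), the first gamma gene, stood at 1.05 TPM in CHLA 02, 0.865 and 0.637 in the CHLA 04 replicates, 7.87 in CHLA 05, and 0.473 and 0.687 in the CHLA 06 replicates. CHLA 05, with an interval of 6.87 to 9.01 TPM, stood above all other libraries.

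PCDHGB7 (ENSG00000254122) was at 1.41 TPM in CHLA 02, 1.48 in CHLA 05, and 2.28 and 1.89 in the CHLA 06 replicates, and had 0 reads in both CHLA 04 replicates. The floor of 3 reads per library was 0.156 and 0.255 TPM in the CHLA 04 replicates. Against the higher floor PCDHGB7 was 5.54-fold higher in CHLA 02, 5.81-fold in CHLA 05 and 8.18-fold in the mean of CHLA 06. Here too the counting error and replicate spread of the higher lines were not included. PCDHGA4 (ENSG00000262576) stood at 2.08 TPM in CHLA 02, 1.63 and 0.404 in the CHLA 04 replicates, 0.185 in CHLA 05, and 0.558 and 0.234 in the CHLA 06 replicates, and the CHLA 04 replicates differed too much to place that line. The 18 gamma members detected in no line reached at most 0.649 TPM, the value of PCDHGA9 in CHLA 02, and made up 3.93% to 10.5% of the gamma total. As a share of the gamma total, PCDHGC3 made up 78.5% and 77.5% in CHLA 04, 55.4% in CHLA 02, 48.5% and 46.3% in CHLA 06, and 22.04% in CHLA 05. PCDHGA1 made up 58.5% in CHLA 05, and PCDHGB1 made up 35.0% and 32.9% in CHLA 06.

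The 5 C-type members were unequal. PCDHGC3 made up 94.4% to 98.3% of their summed TPM in the 6 libraries. PCDHAC2 (ENSG00000243232) stood at 0.552 TPM in CHLA 02, 0.238 and 0.292 in the CHLA 04 replicates, 0.0514 in CHLA 05, and 0.455 and 0.393 in the CHLA 06 replicates, from 2 to 22 reads. PCDHAC1 (ENSG00000248383) had 1 read, in replicate 1 of CHLA 04. PCDHGC4 (ENSG00000242419) had at most 2 reads and PCDHGC5 (ENSG00000240764) at most 3 reads in a library. From counts this low no order of the lines can be read for PCDHAC1, PCDHGC4 and PCDHGC5.

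**Figure D3:**
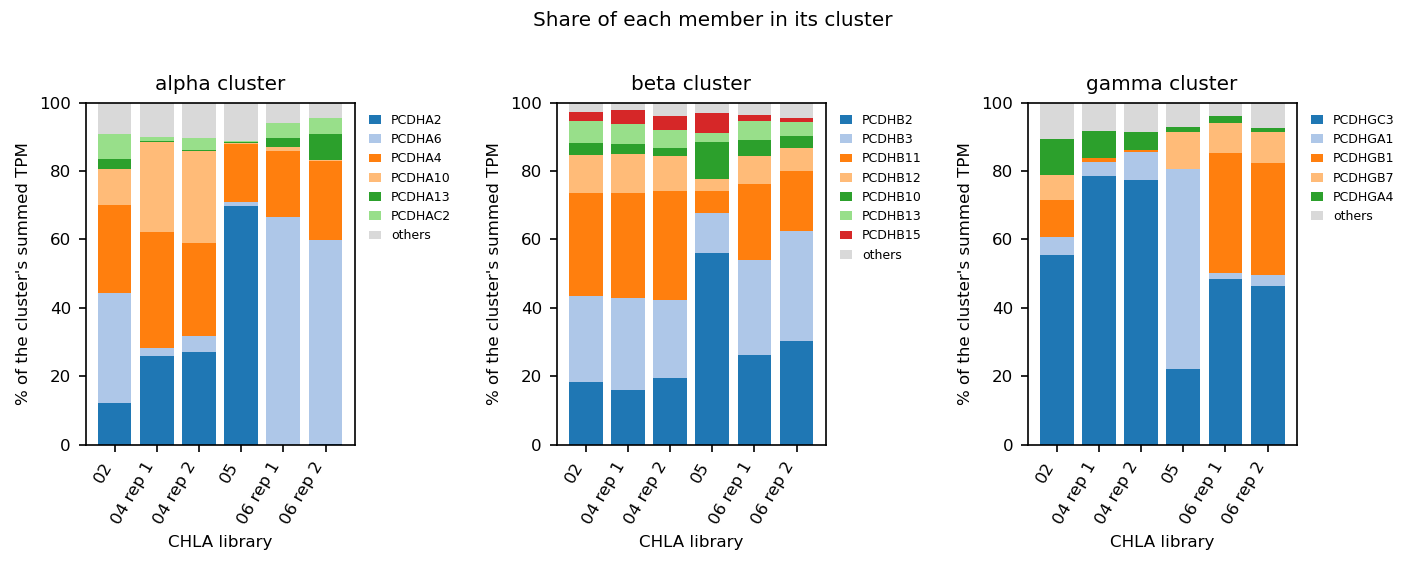
Share of each member in the summed TPM of its cluster, in percent, in the 6 libraries (stacked bars, 1 panel per cluster). Members with 5% or more in a library have their own color and the rest are gray. The technical replicates of CHLA 04 and of CHLA 06 look alike, CHLA 05 is led by PCDHA2, PCDHB2 and PCDHGA1, and CHLA 06 by PCDHA6 and, in gamma, by PCDHGC3 and PCDHGB1.

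Composition held between technical replicates and differed between lines. The part of a cluster's shares that 2 libraries had in common, the sum of the smaller share of each member, was 92.3% in the CHLA 04 replicates and 88.9% in the CHLA 06 replicates for alpha, 93.3% and 90.8% for beta, and 93.2% and 93.9% for gamma. Between libraries of different lines it was 22.2% to 66.9% for alpha, 49.4% to 95.7% for beta and 32.1% to 74.1% for gamma, over 13 pairs. Without CHLA 02, over 8 pairs, it was 22.2% to 53.1%, 49.4% to 85.4% and 32.1% to 55.6%. Each pair of lines without CHLA 02 thus shared less of its composition than the technical replicates did, in all 3 clusters. CHLA 02 shared 95.7% and 93.9% of its beta composition with the CHLA 04 replicates, which is as much as the replicates shared with each other.

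Pairs of lines were compared at 2-fold on the log2(TPM + 1) scale, which understates the change of low genes, over the 52 members and 22532 genes above 0 TPM in a library. Between CHLA 04 and CHLA 06, 9 members were higher in CHLA 04 (PCDHB15, PCDHB11, PCDHB12, PCDHA2, PCDHA10, PCDHB13, PCDHB3, PCDHB2 and PCDHB10), against 14.7% of all genes, and 3 in CHLA 06 (PCDHGB1, PCDHA6 and PCDHGB7), against 10.5%. Of 17 beta members, 7 were higher in CHLA 04 and 0 in CHLA 06, with a median difference of 0.68 against 0.06 over all genes. Over the same 17 genes and on the same scale, replicate 1 of CHLA 04 exceeded replicate 2 by a median of 0.43. With replicate 2 of CHLA 04 alone, PCDHB2 and PCDHB10 did not pass 2-fold over CHLA 06. PCDHGB1 differed most, with a log2 difference (CHLA 04 minus CHLA 06) of -3.01. Between CHLA 05 and CHLA 06, 5 members were higher in CHLA 05 (PCDHA2, PCDHB15, PCDHB10, PCDHGA1 and PCDHB2), against 14.1% of all genes, and 3 in CHLA 06 (PCDHGB1, PCDHA6 and PCDHGC3), against 8.27%. PCDHA2 was 3.25 higher in CHLA 05 on the log2 scale, the widest range of any member.

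Between CHLA 04 and CHLA 05, 6 members were higher in CHLA 04 (PCDHB11, PCDHA10, PCDHB12, PCDHGC3, PCDHB3 and PCDHB13), against 6.37% of all genes, and 5 in CHLA 05 (PCDHGA1, PCDHB10, PCDHGB7, PCDHB2 and PCDHA2), against 8.8%. The 11 members that passed were 21.2% of the 52. Within the beta cluster 4 genes moved one way and 2 the other in that pair. With replicate 2 of CHLA 04 alone, PCDHGC3, PCDHB3 and PCDHB13 did not pass 2-fold over CHLA 05. With replicate 1 alone, PCDHA2 did not pass. Between CHLA 02 and CHLA 04, 3 members were higher in CHLA 02 (PCDHGB1, PCDHGB7 and PCDHA6), against 7.77% of all genes, and 2 in CHLA 04 (PCDHA10 and PCDHA2), against 7.36%, with 0 of 17 beta members. Neither PCDHA10 nor PCDHA2 passed with replicate 2 of CHLA 04 alone. Between CHLA 02 and CHLA 05, 8 were higher in CHLA 02 and 5 in CHLA 05, against 8.15% and 9.53% of all genes. Between CHLA 02 and CHLA 06, 7 were higher in CHLA 02, 6 of them beta members, and 1, PCDHGB1, in CHLA 06, against 6.93% and 2.02%. The pairs share lines, so their counts are not independent. Between the CHLA 04 replicates 2 members passed 2-fold in favor of replicate 1 (PCDHGC3 and PCDHA4) and 1 in favor of replicate 2 (PCDHB9), against 3.37% and 1.36% of all genes. Between the CHLA 06 replicates 0 passed in either direction, against 0.32% and 0.843%. In both directions together, 5 to 13 members passed between lines, and 3 and 0 between technical replicates. With a pseudocount of 0.1 in place of 1, 12 to 25 members passed between lines, and the share of all genes rose as well, from 8.95% to 25.1% with the pseudocount of 1 to 21.4% to 39.9%.

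**Figure D4:**
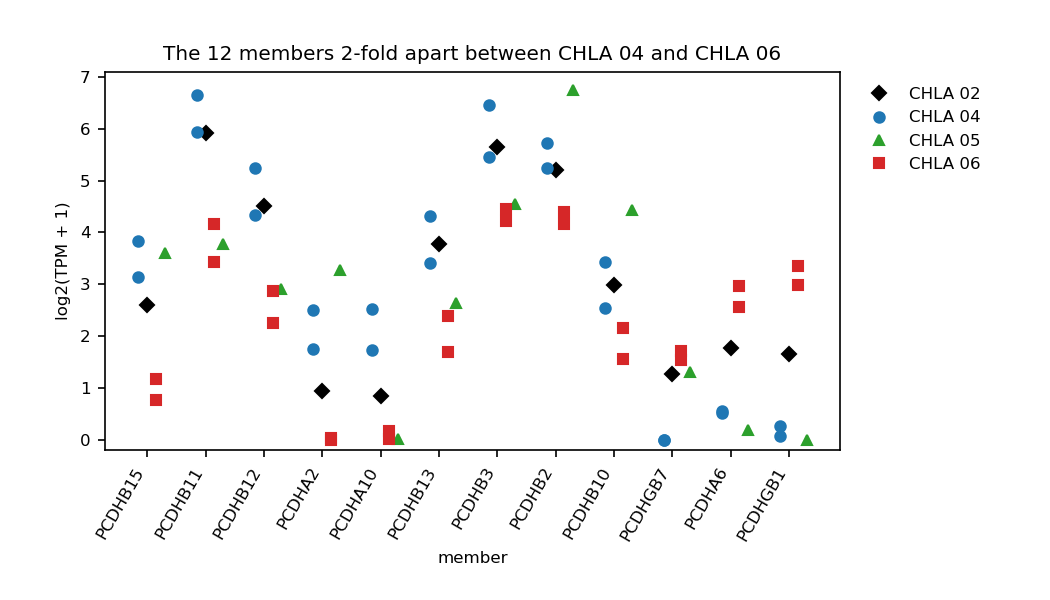
Level, as log2(TPM + 1), of the 12 members 2-fold apart between CHLA 04 and CHLA 06 (x axis), with 1 point per library, colored by cell line, so that CHLA 04 and CHLA 06 have 2 points each. CHLA 04 lies above CHLA 06 for 9 members and below it for PCDHGB7, PCDHA6 and PCDHGB1, and CHLA 02 lies between their means for all but PCDHB10.

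Of those 12 members, 11 lay in CHLA 02 between the means of CHLA 04 and CHLA 06, the same place that most other genes held in this library. CHLA 02 held members that CHLA 04 used and CHLA 06 did not, such as PCDHA10, along with members of the opposite kind, such as PCDHGB1. Of the 17 members detected in CHLA 04 or CHLA 06, 3 (PCDHA2, PCDHA10 and PCDHB9) were below 1 TPM in CHLA 02, at 0.792 to 0.979 TPM. PCDHGA1 was detected in CHLA 02, barely above the threshold at 1.05 TPM, and in neither CHLA 04 nor CHLA 06, and PCDHGA4 could not be placed in CHLA 04.

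Reads of alpha and gamma members were assigned to a transcript of the first exon alone or to spliced transcripts, and the balance differed between members. Reads inside the first exon fit both, so the assignment is that of the authors' counting software. PCDHGA1 had 301 of its 310 reads, 97.1% (interval 94.6 to 98.5), on its single-exon transcript, and in CHLA 05, where it was highest, 208 of 209. PCDHGB7 had 0 of 252 reads and PCDHGC3 0 of 1394 reads on a single-exon transcript, although the annotation holds one for each. PCDHGA6 had 45 of 52 reads, 86.5% (interval 74.7 to 93.3). PCDHA4 had 61.1% and PCDHA10 67.4% on single-exon transcripts of 10557 and 12358 bases, which run well past the variable exon. PCDHA6, at 24.8%, and PCDHA2, at 10.2%, were mostly assigned to spliced transcripts, and PCDHGB1, at 46.4%, to both. Between lines, single-exon transcripts took 60.4% of gamma reads in CHLA 05 (interval 55.2 to 65.4) and 10.5% to 22.2% in the other libraries. PCDHGA1 alone makes this difference, with 208 of the 209 single-exon gamma reads in CHLA 05. Without it the order reversed, with 1 of 137 reads, 0.730% (interval 0.129 to 4.02), in CHLA 05 and 5.91% to 19.5% in the other libraries. For alpha they took 48.9% and 52.4% in CHLA 04 and 32.2% to 39.0% elsewhere. Common exons lie at chr5:140978949-140979007, chr5:140982475-140982563 and chr5:141009627-141012344, shared by 15, 15 and 14 of the 15 alpha genes, and at chr5:141494807-141494865, chr5:141505393-141505481 and chr5:141510947-141512979, shared by 22, 22 and 21 of the 23 gamma genes, and reads there could belong to any gene that shares them.

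**Figure D5:**
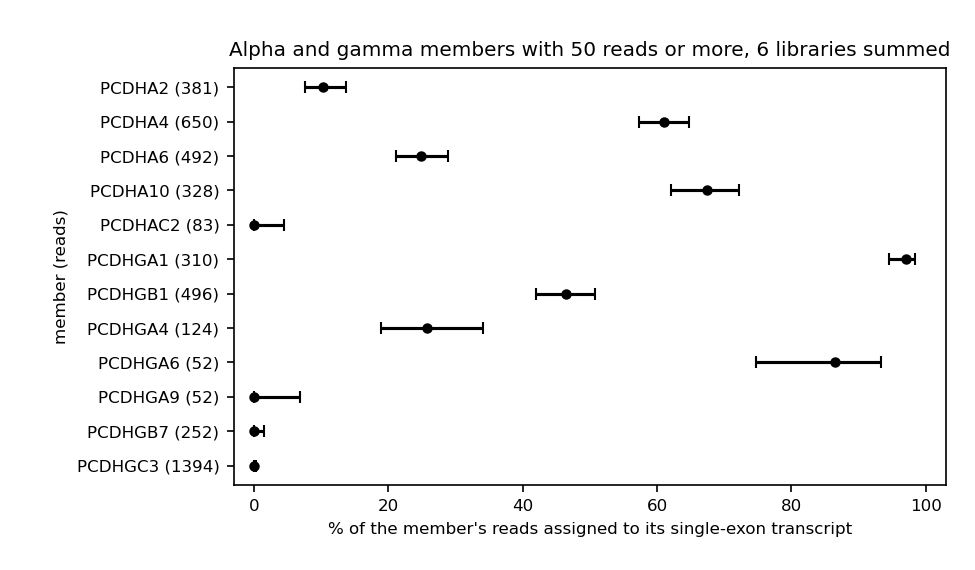
Percent of the reads of each alpha and gamma member that were assigned to its single-exon transcript, for the 12 members with 50 reads or more over the 6 libraries summed (reads in brackets), with 95% Wilson intervals. PCDHGA1 is at 97.1% and PCDHGA6 at 86.5%, PCDHA4 and PCDHA10 lie above 60%, and PCDHGB7, PCDHGA9, PCDHAC2 and PCDHGC3 are at 0.

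A spliced transcript of PCDHB3 with 4 exons, which runs through the next genes to PCDHB6, differed between lines as well. It took 133 of 1176 and 97 of 961 reads of PCDHB3 in the CHLA 04 replicates, 11.3% and 10.1%, and 46 of 475 in CHLA 05, 9.68%. In CHLA 02 it took 31 of 1098, 2.82% (interval 2.00 to 3.98), and in CHLA 06 3.72% and 2.59%. CHLA 02, which shared nearly all of its beta composition with CHLA 04, did not share this fraction.

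LTR elements inside the clusters, counted in a separate mapping with TPM scaled over LTR elements alone, were read as another measure of the same regions. The alpha span held 27 elements, 10 of them with reads, the beta span 14, 9 with reads, and the gamma span 13, 4 with reads. Values are of elements picked after they were seen. A MER9a2 element at chr5:141434334-141434772, past the first exon of PCDHGA12, had 18 reads in CHLA 02, 3 and 3 in the CHLA 04 replicates, 12 in CHLA 05, and 24 and 18 in the CHLA 06 replicates, from 6.14 LTR TPM in CHLA 04 to 56.0 in CHLA 06. CHLA 04 was lowest there, as it was for PCDHGB7. An MLT1I element at chr5:141346551-141346904, between the first exons of PCDHGA3 and PCDHGB1, had 10 reads in CHLA 05 and 0 or 1 in the other 5 libraries. PCDHGA1, whose spliced transcript runs across the element, was highest in CHLA 05. However, 208 of its 209 reads there were on its single-exon transcript, which ends before the element, at chr5:141334639. An MLT1B element at chr5:141139112-141139525, between PCDHB5 and PCDHB6 and inside the long PCDHB3 transcript, was at 106 and 104 LTR TPM in CHLA 04, 45.6 in CHLA 02, 47.8 in CHLA 05, and 22.3 and 25.5 in the CHLA 06 replicates. All 3 are on the strand of the genes. These counts are small, and no relation between an element and a gene was tested.

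Other genes around this family were read from lists, with differences counted at 2-fold between CHLA 04 and CHLA 06, whose background is given above. Of 10 CTCF and cohesin genes found, which shape promoter choice, all were detected in each line, 2 were higher in CHLA 04 and 0 in CHLA 06. CTCF stood at 54.0 TPM in CHLA 02, 65.5 and 83.0 in the CHLA 04 replicates, 85.99 in CHLA 05, and 51.2 and 57.6 in the CHLA 06 replicates. RAD21, a cohesin subunit, was at 197, 209 and 353, 263, and 173 and 198 TPM in the same order. The widest ranges were those of SMC3, another cohesin subunit, at 73.7 to 230 TPM, and STAG1, at 39.4 to 122 TPM. Of 13 genes linked to silencing of the clusters, 3 were higher in CHLA 04 and 1, HDAC1, in CHLA 06. HDAC1, a histone deacetylase, was at 342 and 332 TPM in CHLA 06 and at 116 to 218 TPM elsewhere, and DNMT3A, a DNA methyltransferase, at 25.9 to 97.2 TPM. SMCHD1 stood at 96.8 TPM in CHLA 02, 82.3 and 116 in the CHLA 04 replicates, 106 in CHLA 05, and 65.7 and 81.9 in the CHLA 06 replicates. DNMT3B, which methylates these promoters in development, was low, at 4.79 TPM in CHLA 02, 7.14 and 6.85 in the CHLA 04 replicates, 8.32 in CHLA 05, and 3.33 and 6.09 in the CHLA 06 replicates.

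Among 17 genes of downstream signaling and shedding, 4 were higher in CHLA 04 and 1 in CHLA 06, led by MARCKS, an actin-binding kinase substrate that gamma protocadherins act on, at 495 and 378 TPM in CHLA 04, 630 in CHLA 05, 108 in CHLA 02, and 8.98 and 7.41 in the CHLA 06 replicates. FYN, a Src family kinase, ran likewise, at 143 and 94.7, 253, 36.4, and 7.37 and 8.96 TPM. The list of 18 nonclustered protocadherins also held the cadherins FAT1, FAT2, FAT3, FAT4, DCHS1 and DCHS2. Of the 18, 6 were higher in CHLA 04, FAT4 and DCHS1 among them, and 1 in CHLA 06. The 1 was FAT1, at 256 and 173 TPM in the CHLA 04 replicates and 880 and 660 TPM in the CHLA 06 replicates. Between CHLA 05 and CHLA 06, 10 of the list were higher in CHLA 05 and 2 in CHLA 06. PCDH10 was at 251 TPM in CHLA 05 and at 0.823 to 4.11 TPM elsewhere, and PCDH8 was at 138 and 67.0 TPM in CHLA 04, 108 in CHLA 05, 43.5 in CHLA 02, and 0 and 0.0546 in the CHLA 06 replicates. Of 18 classical cadherins, 3 were higher in CHLA 04 and 0 in CHLA 06, and CDH4 and CDH10 were highest in CHLA 05, at 57.2 and 62.5 TPM.

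Markers of cell types also differed between the lines, and their part in the results was not tested. In bulk RNA fewer cells of a type and less RNA per cell cannot be told apart. Summed over 10 neuron markers, TPM was 326 in CHLA 02, 781 and 652 in the CHLA 04 replicates, 979 in CHLA 05, and 41.8 and 39.0 in the CHLA 06 replicates, and MAP2, at 5.41 to 915 TPM, made up most of it outside CHLA 06. Of the 10, CHLA 02 had 5 detected, CHLA 04 had 6, CHLA 05 had 7 and CHLA 06 had 4. The other members ranged from low to moderate, with SYP at 2.32 to 22.9 TPM, SYT1 at 1.61 to 18.0 TPM, SNAP25 and ELAVL4 at 3.35 and 2.94 TPM at most, RBFOX3 at most at 1.11 TPM, in CHLA 05, DCX at 0.654 TPM at most and GAP43 at 0 to 0.262 TPM. Of these markers, 4 were higher in CHLA 04 and 2 in CHLA 06, NEFL among the latter, at 3.34 to 3.84 and 22.8 to 24.8 TPM. The 5 astrocyte markers summed to 344 TPM in CHLA 02, 519 and 540 in the CHLA 04 replicates, 1256 in CHLA 05, and 0.802 and 1.69 in the CHLA 06 replicates, led by SLC1A3, at 1047 TPM, and GFAP, at 151 TPM in CHLA 05. Of 7 neural progenitor markers, 3 were higher in CHLA 04 and 1 in CHLA 06, with FABP7 at 2236 and 4102 TPM in CHLA 04 and at 0.566 and 1.43 in CHLA 06, and PAX6 at 29.7 and 26.2 against 0.604 and 0.937. The 1 higher in CHLA 06 was VIM, at 19464 and 14708 TPM there and at 4629 and 4990 TPM in CHLA 04. VIM made up most of the sum of this list. That sum was higher in CHLA 06, at 19500 and 14745 TPM, than in CHLA 04, at 6943 and 9167 TPM. The 6 mesenchymal markers summed to 1259 TPM in CHLA 02, 24.04 and 13.5 in the CHLA 04 replicates, 51.2 in CHLA 05, and 1981 and 1122 in the CHLA 06 replicates. COL3A1 and COL1A1 led in CHLA 02 and CHLA 06, and 1 gene was higher in CHLA 04 and 4 in CHLA 06. The 1 was PDGFRB, at 16.1 and 11.9 TPM in CHLA 04 and 4.45 and 3.85 TPM in CHLA 06. COL1A2 was highest in CHLA 05, at 7.12 TPM, and stood at 0 and 0.0259 TPM in the CHLA 06 replicates. Of 7 oligodendrocyte lineage markers, 3 were higher in CHLA 04 and 1 in CHLA 06, with MBP at 31.9 TPM in CHLA 02, 23.9 and 22.3 in CHLA 06 and 0 in both CHLA 04 libraries, and OLIG1 at 31.9 TPM in CHLA 05 and 2.28 or less elsewhere. The 6 choroid plexus markers summed to 0.376 to 1.28 TPM and the 4 immune markers to 0.344 to 22.7 TPM, with CD68 at 0.236 to 22.6 TPM and PTPRC at 0.224 TPM or less. SMARCA4, the other gene of the AT/RT list, was at 104 to 342 TPM.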

How the data were processed

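Libraries were made with the TruSeq Stranded Total RNA protocol and sequenced as 125 bp paired ends. The authors trimmed the reads with Trimmomatic, with FastQC and CASAVA 1.8.2 also named in the submitters' processing notes. They mapped the reads to GRCh38 with Ensembl release 82 annotation in the CLCbio Genomics Workbench and deposited TPM per transcript and, from a second mapping, TPM per RepeatMasker LTR element. The 12 files hold 1 library each.

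Reads were recovered as whole multiples of a step in TPM × length (at least 99.6% of values whole, within 0.05 of a read). Recovery and the 2-fold count were tested on simulated data with counting noise only. For the 2-fold count, large changes were planted in transcripts with many reads. It was therefore not tested for members with few reads or for changes near 2-fold. A line's value was the mean of log2(TPM + 1) over technical replicates. Wilson intervals (95%) came from scipy 1.17.1 in Python 3.11.15. The labels call the replicates technical, so the spread between them is not that between cultures.

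Members, lists and alternatives were chosen with earlier results of these data known. Named were the 5 highest members of each cluster, every C-type member, the 5 with the widest range, and at most 2 genes of each list beside CTCF, RAD21, SMCHD1, DNMT3B and SMARCB1. Members named in counts of detection or of 2-fold differences, further cell type markers and further genes of the nonclustered protocadherin list are outside this rule. So are the printed promoters, the PCDHB3 transcript and the LTR elements. All of these were named after their values were seen. WAPL, of the cohesin list, was not found by symbol. Alternatives tried were other pseudocounts, folds, thresholds, scalings and single replicates.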

Additional observations from a re-analysis of the deposited data

How the results depend on the processing

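Each line is 1 biological sample, and the spread between cultures was not measured. No paired analysis was possible because replicate numbers mark technical replicates within a line and no test between lines was made. Alternatives gave 142 values for the counts and totals over all members, of which 113 stayed within 1.5-fold, or within the technical or counting spread for totals. With a threshold of 5 TPM, members detected were 8 in CHLA 02, 8 in CHLA 04, 9 in CHLA 05, 6 in CHLA 06, 12 in any line, 3 in every line and 4 in 1 line only, while 30.9% to 32.5% of all genes reached it in each single line. The count in 1 line only, 2 as reported, was 1 with the maximum of technical replicates, 1 with the plain mean of TPM, 5 with quantile normalization, 4 with the most abundant transcript, 6 with 10 reads or more in every library of the line, and 5 without CHLA 02. The plain mean and the omission of CHLA 02 were added after the data were seen. With the most abundant transcript alone, summed TPM was 210 in CHLA 02 and 202 in CHLA 05, and with quantile normalization it was 201 in CHLA 05. With a pseudocount of 0.1, members past 2-fold were 12 for CHLA 02 against CHLA 04, 25 for CHLA 02 against CHLA 05, 18 for CHLA 02 against CHLA 06, 22 for CHLA 04 against CHLA 05, 23 for CHLA 04 against CHLA 06 and 23 for CHLA 05 against CHLA 06, and of all genes 29.7%, 32.9%, 21.4%, 29.4%, 39.9% and 36.9% passed. At a fold of 4 they were 0, 3, 1, 3, 7 and 7 for these pairs in the same order, beside 4.13%, 6.32%, 2.97%, 4.98%, 10.2% and 9.56% of all genes. For CHLA 02 against CHLA 04, members past 2-fold were 0 with a pseudocount of 2, beside 12% of all genes. They were 2 with the most abundant transcript, for which the share of all genes was not counted. These alternatives move the threshold, the scale or the transcripts summed, and which of a member's properties made it sensitive was not tested.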
